A study of Mus musculus with 8 samples.

Results

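Plasma cells must leave the organ in which they form and settle in a survival niche, and the 9 genes described here belong to that journey. They are 8 G protein-coupled receptors that steer lymphocytes (S1pr1, Gpr183, Cxcr4, Cxcr3, Ccr10, Ccr9, Cxcr5 and Ccr7) and the transcription factor gene Klf2. They were taken by name from the 27179 Entrez genes of the count table. All 9 were found there, and all 9 were among the 15073 genes that passed the low-count filter.

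The measured cells were bone marrow plasma cells of C57BL/6 mice, sorted as positive for a Blimp1-GFP reporter and for CD138. In batch 1, 2 libraries of genotype Blimp1-/- (Blimp1KO) stand against 2 wild-type libraries (WT). In batch 2, 2 libraries of genotype Xbp1-/- (Xbp1KO) stand against another 2 WT libraries. The knockout alleles, any Cre line or inducing treatment, the age of the mice and whether mice were pooled are not given in the sources used here. All groups were gated on a reporter of the gene Prdm1, which encodes Blimp1, so each library holds cells in which that gene was active. The series text calls the replicates biological. The p-values below rest on the spread between 2 such libraries a group, estimated jointly over all 4 groups unless a fit is named otherwise.

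Sphingosine 1-phosphate is abundant in blood and lymph and scarce inside tissue, and cells carrying its receptor S1PR1 follow it out of lymphoid organs. KLF2 is a transcription factor that, in T cells, switches on the gene of S1PR1. The chemokine CXCL12, made by bone marrow stroma, holds plasma cells there through CXCR4, while CXCR5, CCR7 and EBI2 (Gpr183) position B cells within follicles and at their borders. CCR9 and CCR10 are receptors of mucosal homing, for CCL25 and for CCL27 and CCL28, and CXCR3 answers to interferon-induced chemokines of inflamed tissue.

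Promoter windows were available from RefSeq (GRCm38.p6, 250 bases before to 50 after the gene start) for 5 of the 9 genes: Klf2, Cxcr4, Cxcr3, Ccr9 and Gpr183. Those of Gpr183 and Ccr9 are shown because both genes rose in Xbp1KO, and that of Klf2 because its own level differed most between the batches. The windows lie at chr14:121965144-121965443 on the minus strand (Gpr183), chr9:123766961-123767260 on the plus strand (Ccr9) and chr8:72318812-72319111 on the plus strand (Klf2). Capitals mark matches, on either strand, to GAAAG (core of the sites bound by Blimp1), CCACG (core of the elements bound by XBP1) or CACCC (bound by KLF proteins), which share no letters in these windows.
Gpr183: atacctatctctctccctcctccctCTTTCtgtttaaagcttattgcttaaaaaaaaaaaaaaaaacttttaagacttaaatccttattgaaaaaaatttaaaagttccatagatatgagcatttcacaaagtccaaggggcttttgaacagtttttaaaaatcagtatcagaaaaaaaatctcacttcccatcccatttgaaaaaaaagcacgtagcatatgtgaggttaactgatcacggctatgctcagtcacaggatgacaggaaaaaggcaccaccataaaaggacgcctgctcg
Ccr9: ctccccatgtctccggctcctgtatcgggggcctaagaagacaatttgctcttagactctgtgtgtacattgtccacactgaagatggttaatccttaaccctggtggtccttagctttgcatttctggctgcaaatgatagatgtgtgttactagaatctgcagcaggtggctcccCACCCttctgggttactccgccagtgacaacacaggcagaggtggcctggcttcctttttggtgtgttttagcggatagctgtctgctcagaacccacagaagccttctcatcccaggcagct
Klf2: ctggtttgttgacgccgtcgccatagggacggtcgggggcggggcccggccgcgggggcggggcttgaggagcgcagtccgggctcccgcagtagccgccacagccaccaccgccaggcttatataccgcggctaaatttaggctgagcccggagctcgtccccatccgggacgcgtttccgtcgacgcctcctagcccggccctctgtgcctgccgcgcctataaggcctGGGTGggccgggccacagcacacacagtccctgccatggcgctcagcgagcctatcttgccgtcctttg
In the Gpr183 window the only match was 1 GAAAG, read as CTTTC on the strand shown. The Ccr9 and Klf2 windows each held 1 CACCC, read as GGGTG on the strand shown for Klf2. Cxcr4 had 1 GAAAG and 1 CACCC, and Cxcr3 had 1 CCACG. Of all 32851 windows of this length, 57.3% held GAAAG, 32.8% CCACG and 57.5% CACCC, so these matches are a description of the letters and no more.

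Before any contrast, the levels of the 9 genes were ordered within each group by CPM per kilobase of gene length (CPM being read counts scaled to library size, with TMM factors). Cxcr4 had the highest mean in 3 groups, with 84.0 ± 5.91 CPM per kilobase (SD, n = 2) in Xbp1KO, 64.0 ± 8.26 in WT of batch 2 and 63.7 ± 18.6 in WT of batch 1. In WT of batch 1, Cxcr4, Ccr10 and Klf2 (55.7 ± 49.3) overlapped, Klf2 being above Cxcr4 in replicate 1 (90.5 against 76.8 CPM per kilobase) and Ccr10 above it in replicate 2 (75.8 against 50.5). In Blimp1KO, Klf2 (90.7 ± 8.13 CPM per kilobase) and Cxcr4 (86.8 ± 16.6) led with overlapping libraries. Cxcr4 lay between the percentiles of 94.3 and 97.4 of all genes in every library.

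Ccr10 was also high, with 45 ± 25.1 CPM per kilobase in Blimp1KO, 59 ± 23.8 in WT of batch 1, 63.2 ± 5.89 in Xbp1KO and 19.6 ± 2.36 in WT of batch 2. The remaining receptors formed a lower tier. In WT of batch 1 their order was Cxcr3 (12.2 CPM per kilobase), Gpr183 (3.02), Ccr9 (3.0), S1pr1 (1.51), Ccr7 (0.652) and Cxcr5 (0.212), and of these neighbours Gpr183 and Ccr9 overlapped. In WT of batch 2 the order was Cxcr3 (11.5 CPM per kilobase), Klf2 (4.39), Ccr9 (1.81), S1pr1 (1.31), Gpr183 (1.13), Cxcr5 (0.395) and Ccr7 (0.340), with overlap between S1pr1 and Gpr183 and between Cxcr5 and Ccr7. WT bone marrow plasma cells thus carried much mRNA of the CXCL12 and CCL28 receptors and little of Cxcr5 and Ccr7 in both batches.

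In the knockouts this lower tier was less spread out. In Blimp1KO, Ccr7 (11.1 CPM per kilobase), S1pr1 (10.2), Cxcr3 (9.20) and Gpr183 (8.05) followed each other with overlap at every step, above Cxcr5 (4.64) and Ccr9 (4.42), which overlapped. In Xbp1KO, Klf2 (6.79 CPM per kilobase), Gpr183 (5.50), Cxcr3 (5.36), Ccr9 (5.24) and S1pr1 (4.87) also overlapped at every step, above Ccr7 (0.532) and Cxcr5 (0.497), which overlapped.

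**Figure D1:**
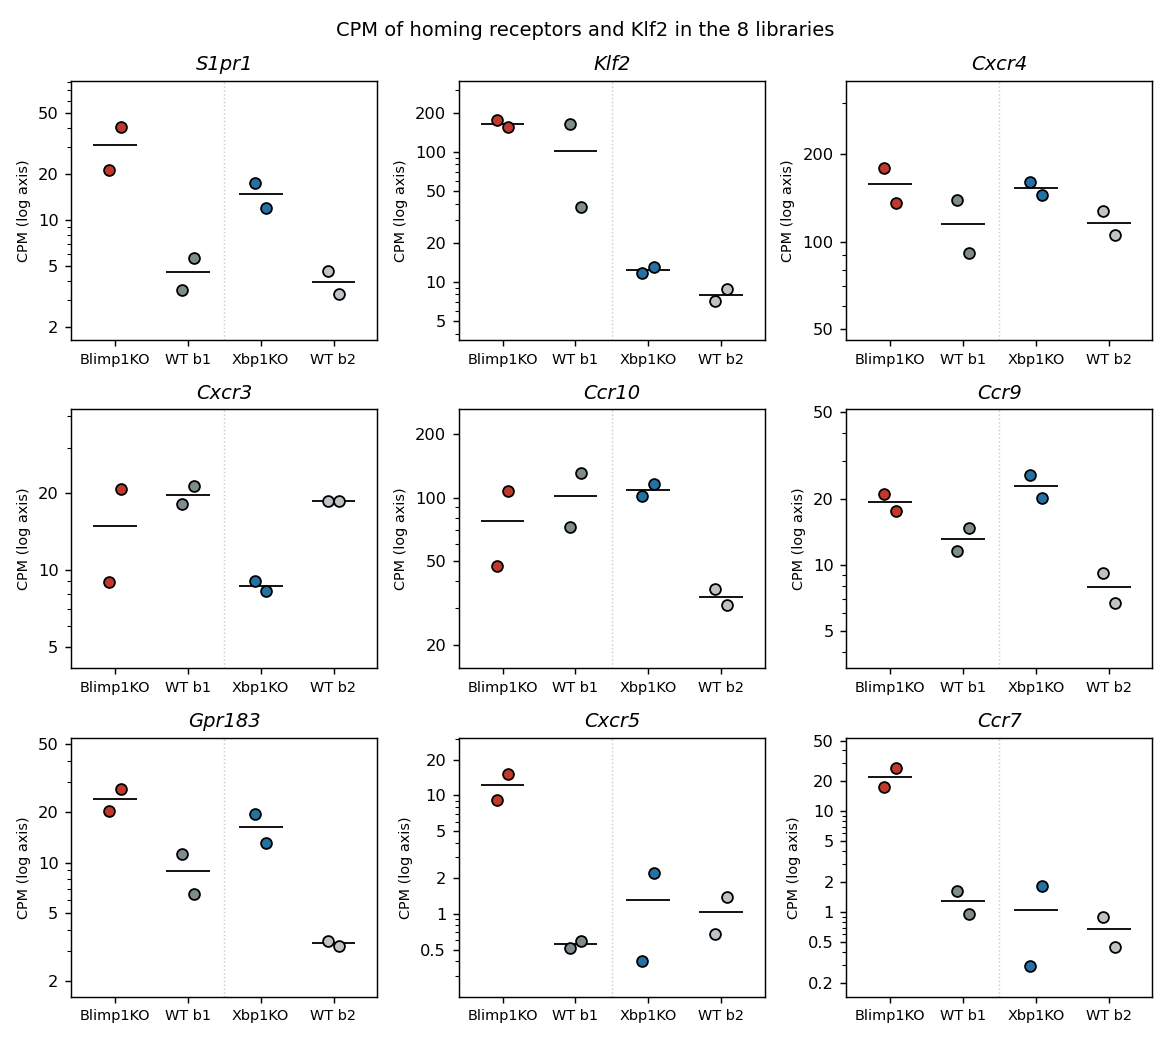
CPM of each of the 9 genes (log axis, 1 panel a gene) in the 2 libraries of Blimp1KO, WT of batch 1 (WT b1), Xbp1KO and WT of batch 2 (WT b2); points are libraries, with replicate 1 (or 3) left of replicate 2 (or 4), and lines are group means. S1pr1 and Gpr183 lie above WT of the own batch in both knockouts, Cxcr5 and Ccr7 lie far above it in Blimp1KO with both libraries, and the WT libraries of batch 1 stand wide apart for Klf2.

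S1pr1, the egress receptor (Entrez 13609, chromosome 3, 115710433 to 115715055 in GRCm38.p6), was the gene of the 9 that passed the test in both knockouts. Its level was 21.2 and 40.3 CPM in Blimp1KO, against 3.49 and 5.63 CPM in WT of batch 1. It was 17.5 and 12 CPM in Xbp1KO, against 4.62 and 3.31 CPM in WT of batch 2. All 4 knockout libraries stood above all 4 WT libraries. S1pr1 rose 6.74-fold in Blimp1KO, a log2 fold change of 2.75 ± 0.41 (SE, n = 2 per group, 95% interval 1.79 to 3.71, adjusted p = 0.0382, edgeR quasi-likelihood test with Benjamini-Hochberg adjustment over all genes). In Xbp1KO it rose 3.71-fold, by 1.89 ± 0.39 on the log2 scale (interval 0.97 to 2.82, adjusted p = 0.0341).

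S1pr1 was the 1 gene of the 9 called in Blimp1KO, where 0.862% of all genes tested were called and 0.577% were called higher. At an unadjusted p below 0.05, 5 of the 9 passed, against 13.9% of all genes. The libraries of Blimp1KO and of WT did not overlap for 5 of the 9 genes, all higher in Blimp1KO, against 43.1% of all genes. The median log2 fold change was 0.71 over the 9 genes and -0.01 over all genes tested. Which gene passed depended on 1 library: S1pr1 lost the call without Blimp1KO replicate 2 (log2 fold change 2.22, adjusted p = 0.0513), WT replicate 1 (2.45, 0.298), WT replicate 2 (3.14, 0.192), WT replicate 3 (2.76, 0.0894) or WT replicate 4 (2.76, 0.0828). It also lost it with limma-voom (2.71, adjusted p = 0.0659) and with batch 1 fitted alone (2.80, adjusted p = 0.0940), while its direction held in each of these fits. The summed mature B cell markers were also higher in both Blimp1KO libraries (below), and the part of B cell RNA in S1pr1 was not tested.

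Gpr183 encodes EBI2, which senses oxysterols and draws B cells to the outer follicle (Entrez 321019, chromosome 14, 121952331 to 121965193, inside an intron of Ubac2). Levels were 20.1 and 27.3 CPM in Blimp1KO, against 11.2 and 6.53 CPM in WT of batch 1. They were 19.4 and 13.0 CPM in Xbp1KO, against 3.44 and 3.21 CPM in WT of batch 2. Both knockouts were above WT of their own batch without overlap. Gpr183 rose 4.86-fold in Xbp1KO, by 2.28 ± 0.32 on the log2 scale (interval 1.52 to 3.05, adjusted p = 0.0103). In Blimp1KO its log2 fold change was 1.41 ± 0.32 (interval 0.67 to 2.16), which missed the threshold (adjusted p = 0.108) but passed it with edgeR without the low-count filter (1.42, adjusted p = 0.00233) and with DESeq2, both without the filter (1.44, adjusted p = 0.00135) and with it (1.44, 0.00137). The Blimp1KO value missed the threshold in the other 16 of 19 alternative fits.

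Ccr9, the receptor for the gut and thymus chemokine CCL25 (Entrez 12769, chromosome 9, 123767211 to 123783457), had 21.1 and 17.7 CPM in Blimp1KO, against 11.6 and 14.7 CPM in WT of batch 1. It had 25.7 and 20.3 CPM in Xbp1KO, against 9.19 and 6.73 CPM in WT of batch 2. Again the knockout libraries were the higher ones in both batches. Ccr9 rose 2.89-fold in Xbp1KO, by 1.53 ± 0.23 on the log2 scale (interval 1.00 to 2.06, adjusted p = 0.0118). Its log2 fold change in Blimp1KO was 0.56 ± 0.22 (interval 0.04 to 1.09, adjusted p = 0.326). In the GENCODE annotation 1932 exon bases of Ccr9 overlap exons of AC165425.1. The strand setting of the counting is not given in the sources used here, so reads of the pair may not be separable.

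S1pr1, Ccr9 and Gpr183 were the 3 genes of the 9 called in Xbp1KO, all higher, where 7.7% of all genes were called and 2.63% were called higher. An unadjusted p below 0.05 was reached by 5 of the 9, against 23.6% of all genes. Libraries did not overlap for 7 of the 9 genes, against 57.6% of all genes. The median log2 fold change was 0.63 over the 9 genes and 0.08 over all genes tested. None of the 3 calls remained without Xbp1KO replicate 1 (adjusted p = 0.134 for S1pr1, 0.0705 for Ccr9, 0.0517 for Gpr183), WT replicate 3 (0.134, 0.0501 and 0.0809) or WT replicate 4 (0.199, 0.0831 and 0.0821). The S1pr1 call was also lost without Xbp1KO replicate 2 (adjusted p = 0.0663), WT replicate 1 (0.0535) or WT replicate 2 (0.0516), with log2 fold changes of 1.51 to 2.16 over all fits that left out 1 library.

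Markers of other marrow cells differed between the libraries of batch 2. The summed CPM of 14 neutrophil and monocyte markers was 2.50 and 1480 in Xbp1KO, against 6.10 and 627 in WT of batch 2. The 9 erythroid and megakaryocyte markers found in the table summed to 8.78 and 952 CPM in Xbp1KO, against 31.4 and 299 CPM in WT of batch 2. Xbp1KO replicate 2 and WT replicate 4 thus held most of this RNA, and the other 2 libraries held little. Without these 2 libraries (a choice made after the sums were seen), S1pr1 kept a log2 fold change of 1.91, Ccr9 of 1.47 and Gpr183 of 2.49, with 1 library left in each group and adjusted p of 0.251, 0.146 and 0.122. Batch 1 held such RNA in every library. There the neutrophil and monocyte markers summed to 472 and 260 CPM in Blimp1KO, against 315 and 420 CPM in WT. The erythroid and megakaryocyte markers summed to 30 and 154 CPM in Blimp1KO, against 30.5 and 149 CPM in WT. The part of this RNA in the batch 1 levels of the 9 genes was not tested. In bulk RNA, fewer cells of a type and less RNA per cell cannot be told apart.

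**Figure D2:**
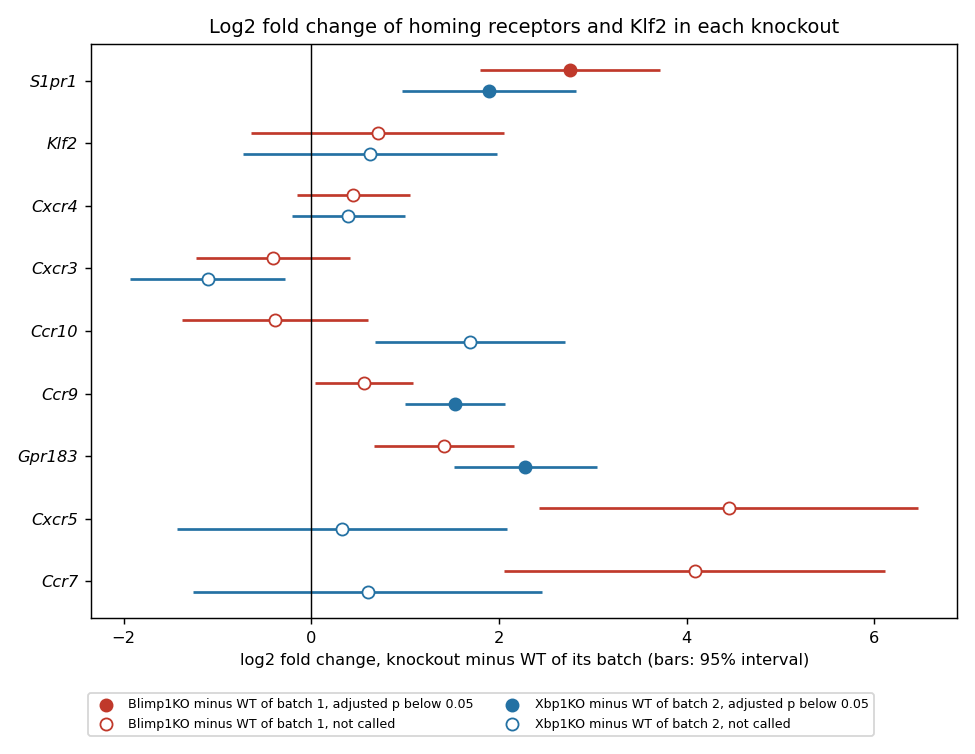
Log2 fold change of each of the 9 genes in Blimp1KO against WT of batch 1 (red, upper mark) and in Xbp1KO against WT of batch 2 (blue, lower mark); bars are 95% intervals from the fit over all 8 libraries, and filled marks have an adjusted p below 0.05. S1pr1 is filled in both knockouts, Ccr9 and Gpr183 in Xbp1KO, and the intervals of Cxcr5 and Ccr7 are the widest.

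Cxcr5 and Ccr7 had the highest log2 fold changes of the 9 genes in Blimp1KO. Cxcr5, the CXCL13 receptor that brings B cells into follicles (Entrez 12145, chromosome 9, 44511787 to 44526444), had 9.07 and 15.2 CPM in Blimp1KO, against 0.521 and 0.588 CPM in WT of batch 1. These rest on 664 and 1151 reads in Blimp1KO, against 23 and 28 reads in WT. Ccr7, the receptor of the T zone chemokines CCL19 and CCL21 (Entrez 12775, chromosome 11, 99144199 to 99155077), had 17.2 and 26.5 CPM in Blimp1KO, against 1.61 and 0.966 CPM in WT of batch 1. For both genes the 2 Blimp1KO libraries were the highest of all 8.

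The log2 fold change in Blimp1KO was 4.45 ± 0.85 for Cxcr5 (21.8-fold, interval 2.43 to 6.46) and 4.09 ± 0.86 for Ccr7 (17-fold, interval 2.06 to 6.12). Neither passed the threshold, with adjusted p of 0.0735 for Cxcr5 and 0.0901 for Ccr7. Both passed with edgeR without the low-count filter (adjusted p = 5.35e-05 for Cxcr5 and 4.97e-05 for Ccr7), with DESeq2 without the filter (1.82e-08 and 1.5e-07) and with it (5.4e-08 and 4.29e-07), with all 4 WT libraries as the comparison group, and without either Xbp1KO library (0.0303 for both genes without replicate 1, 0.0267 for both without replicate 2). Cxcr5 also passed without Blimp1KO replicate 1 (adjusted p = 0.0378) and with batch 1 fitted alone (0.0411), and Ccr7 did not. Neither passed with limma-voom (adjusted p = 0.15 for Cxcr5 and 0.0837 for Ccr7) or with the replicate number of batch 1 as a block (0.104 and 0.139). Leaving out any 1 WT library also left both above the threshold. Cxcr5 missed it in 9 of 19 alternative fits and Ccr7 in 12. Among all genes, 517 were called without the filter and 813 or 856 by DESeq2, against 130 in the main fit. In Cxcr5, 110 exon bases are shared with Bcl9l.

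In batch 2 the same pair was low throughout. Cxcr5 had 0.401 and 2.20 CPM in Xbp1KO, against 0.683 and 1.38 CPM in WT of batch 2. Ccr7 had 0.289 and 1.81 CPM in Xbp1KO, against 0.896 and 0.447 CPM in WT of batch 2. The WT libraries lay between the 2 Xbp1KO libraries for both genes, the higher of which was replicate 2. Log2 fold changes were 0.33 ± 0.74 (interval -1.43 to 2.08, adjusted p = 0.836) for Cxcr5 and 0.60 ± 0.79 (interval -1.26 to 2.46, adjusted p = 0.706) for Ccr7, and without Xbp1KO replicate 2 they were -1.31 and -1.22.

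In batch 1 the sum of the B cell markers was higher in both Blimp1KO libraries. The 14 mature B cell markers summed to 676 and 725 CPM in Blimp1KO, against 258 and 211 CPM in WT of batch 1. They summed to 237 and 275 CPM in Xbp1KO, against 250 and 216 CPM in WT of batch 2. No marker of the list was at 0 in any library, and 13 of the 14 had a log2 fold change above 0 in Blimp1KO, with a median of 1.22. The remaining one, Cr2, was at -1.35. Most of the difference in the sum lay in Ms4a1, which encodes CD20 (285 and 240 CPM in Blimp1KO, against 108 and 85.8 CPM in WT; 1.44 ± 0.28, adjusted p = 0.0782), and Spib. Of the 14, 1 was called, against 0.862% of all genes. It was the B cell transcription factor gene Spib, with 157 and 197 CPM in Blimp1KO, against 5.78 and 7.22 CPM in WT (log2 fold change 4.77 ± 0.62, adjusted p = 0.0326). That call was lost without any 1 WT library (adjusted p = 0.283 without replicate 1, 0.224 without replicate 2, 0.0720 without replicate 3, 0.0657 without replicate 4). The part of B cell RNA in the Blimp1KO levels of the 9 genes, S1pr1, Gpr183, Cxcr5 and Ccr7 among them, was not tested. The same holds for S1pr4 and Coro1a, described below. Other marker sums ran over the 8 libraries from 17.3 to 40.8 CPM for T and NK cells, 250 to 290 CPM for dendritic cells and 30.8 to 64.7 CPM for stroma and endothelium. The dendritic sum was mostly Tcf4 and Bst2 (200 and 158 CPM for Tcf4 in Blimp1KO, against 149 and 149 CPM in WT of batch 1). Of its 10 genes 8 had estimates above 0 in Blimp1KO, with a median of 1.01 and none called. They include Itgax, with 18.3 and 15.9 CPM in Blimp1KO, against 5.4 and 2.2 CPM in WT of batch 1, and Zbtb46, with 1.13 and 0.977 CPM, against 0.136 and 0.315 CPM. The part of dendritic cell RNA in the receptor levels was not tested. Of 14 tested T and NK cell genes, 1 was called higher and 1 lower in Xbp1KO, against 2.63% and 5.06% of all genes. The higher one was Cd8b1 (3.24 ± 0.52, adjusted p = 0.0152), whose call was lost without Xbp1KO replicate 1 or WT replicate 4. The lower one was Prf1 (-1.82 ± 0.43, adjusted p = 0.0491), whose call was lost without Xbp1KO replicate 2 or any 1 WT library.

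**Figure D3:**
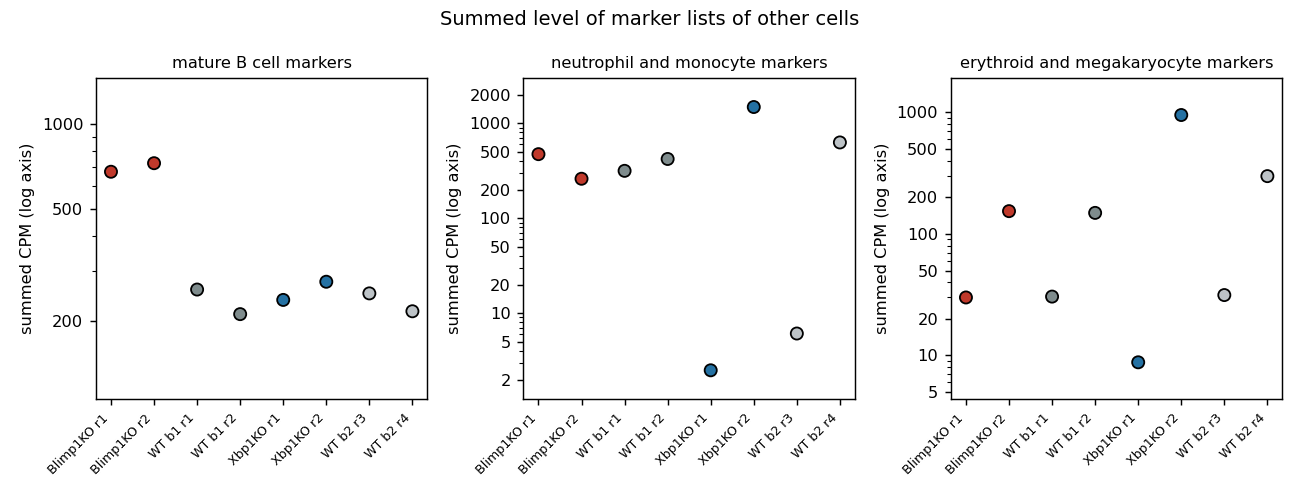
Summed CPM (log axis) of the markers of mature B cells (14 genes), of neutrophils and monocytes (14 genes) and of erythroid cells and megakaryocytes (9 genes) in each of the 8 libraries, coloured by group, with r for replicate. B cell markers are highest in both Blimp1KO libraries (676 and 725 CPM), and the other 2 lists are highest in Xbp1KO replicate 2 and WT replicate 4 of batch 2.

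Ccr10, the mucosal receptor (Entrez 12777, chromosome 11, 101172998 to 101175443), had 47.1 and 108 CPM in Blimp1KO, against 72.8 and 131 CPM in WT of batch 1. It had 102 and 116 CPM in Xbp1KO, against 36.7 and 30.9 CPM in WT of batch 2. The groups overlapped in batch 1, and both Xbp1KO libraries were higher in batch 2. Its log2 fold change was -0.39 ± 0.42 in Blimp1KO (interval -1.38 to 0.60, adjusted p = 0.786). In Xbp1KO it was 1.69 ± 0.43 (3.22-fold, interval 0.67 to 2.70), with an adjusted p of 0.0622 that passed the threshold with edgeR without the low-count filter (0.00095), with DESeq2 without the filter (0.00056) and with it (0.000625), with batch 2 fitted alone (0.0140) and without Blimp1KO replicate 1 (0.0167) or 2 (0.0162). With all 4 WT libraries as the comparison group the Xbp1KO value was 0.69 and the Blimp1KO value was 0.20. The Xbp1KO value of Ccr10 missed the threshold in 11 of 18 alternative fits.

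Cxcr3, the receptor of CXCL9, CXCL10 and CXCL11 (Entrez 12766, chromosome X, 101731535 to 101734147), had 8.93 and 20.7 CPM in Blimp1KO, against 18.1 and 21.2 CPM in WT of batch 1. It had 9.03 and 8.22 CPM in Xbp1KO, against 18.5 and 18.6 CPM in WT of batch 2. Both Xbp1KO libraries were below WT, while Blimp1KO replicate 1 was low and replicate 2 lay among the WT values. The log2 fold change was -0.41 ± 0.35 in Blimp1KO (interval -1.23 to 0.41, adjusted p = 0.712), and it was -1.13 (adjusted p = 0.0432) without Blimp1KO replicate 2 and 0.12 (adjusted p = 0.794) without replicate 1. In Xbp1KO it was -1.10 ± 0.35 (interval -1.93 to -0.28, adjusted p = 0.110), which passed the threshold without Blimp1KO replicate 1 (0.00782) or 2 (0.0054), with edgeR without the low-count filter (0.0101), with DESeq2 without the filter (0.0224) and with it (0.0229), and with batch 2 fitted alone (0.0128). Its Xbp1KO value missed the threshold in 12 of 18 alternative fits. Cxcr3 was the 1 gene of the 9 with a negative estimate in Xbp1KO.

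Cxcr4, the marrow retention receptor (Entrez 12767, chromosome 1, 128588199 to 128592299), varied little. Its level was 179 and 136 CPM in Blimp1KO, against 139 and 91.6 CPM in WT of batch 1. In batch 2 it was 160 and 145 CPM in Xbp1KO, against 127 and 105 CPM in WT. Libraries overlapped narrowly in batch 1 and not in batch 2. Log2 fold changes were 0.45 ± 0.26 in Blimp1KO (interval -0.16 to 1.05, adjusted p = 0.520) and 0.39 ± 0.26 in Xbp1KO (interval -0.21 to 1.00, adjusted p = 0.418), with upper bounds of 2.07-fold in Blimp1KO and 2.0-fold in Xbp1KO.

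Klf2 (Entrez 16598, chromosome 8, 72319062 to 72321654) had 175 and 154 CPM in Blimp1KO, against 164 and 37.8 CPM in WT of batch 1. It had 11.7 and 13.0 CPM in Xbp1KO, against 7.15 and 8.80 CPM in WT of batch 2. WT replicate 1 was as high as Blimp1KO, WT replicate 2 was far lower, and all of batch 2 lay below all of batch 1. The log2 fold change was 0.71 ± 0.57 in Blimp1KO (interval -0.64 to 2.05, adjusted p = 0.688) and 0.63 ± 0.57 in Xbp1KO (interval -0.72 to 1.98, adjusted p = 0.576). In batch 1 the Blimp1KO value rested on which WT library was used, being 2.13 without WT replicate 1 and 0.01 without WT replicate 2. In batch 2 both Xbp1KO libraries were above both WT libraries. The SE there comes from a spread shared by all 4 groups, including the wide WT pair of batch 1. With batch 2 fitted alone the Xbp1KO value was 0.62 ± 0.17 (adjusted p = 0.0908, edgeR).

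WT replicate 1 had the highest level of all 8 libraries for Klf6, Cd69 and Klf4, 3 genes that respond early to cell activation. Klf6, a relative of Klf2, had 74.4 and 25.5 CPM in Blimp1KO, against 248 and 38.0 CPM in WT of batch 1. Its level in batch 2 was 23.1 to 29.5 CPM. Cd69, whose protein pulls S1PR1 off the cell surface, had 8.34 and 5.98 CPM in Blimp1KO, against 51.9 and 10.9 CPM in WT of batch 1. In batch 2 Cd69 had 27.3 and 16.4 CPM in Xbp1KO, against 11.0 and 6.15 CPM in WT. Klf4 had 5.74 and 0.805 CPM in Blimp1KO, against 12.8 and 2.54 CPM in WT of batch 1. In both groups of batch 1 replicate 1 was above replicate 2 for Klf2 and these 3 genes. The replicate numbers are not known to pair the samples. Klf4, Klf6 and Cd69 were named after their values were seen, none was called in either knockout, and the cause of the difference between these libraries was not tested.

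**Figure D4:**
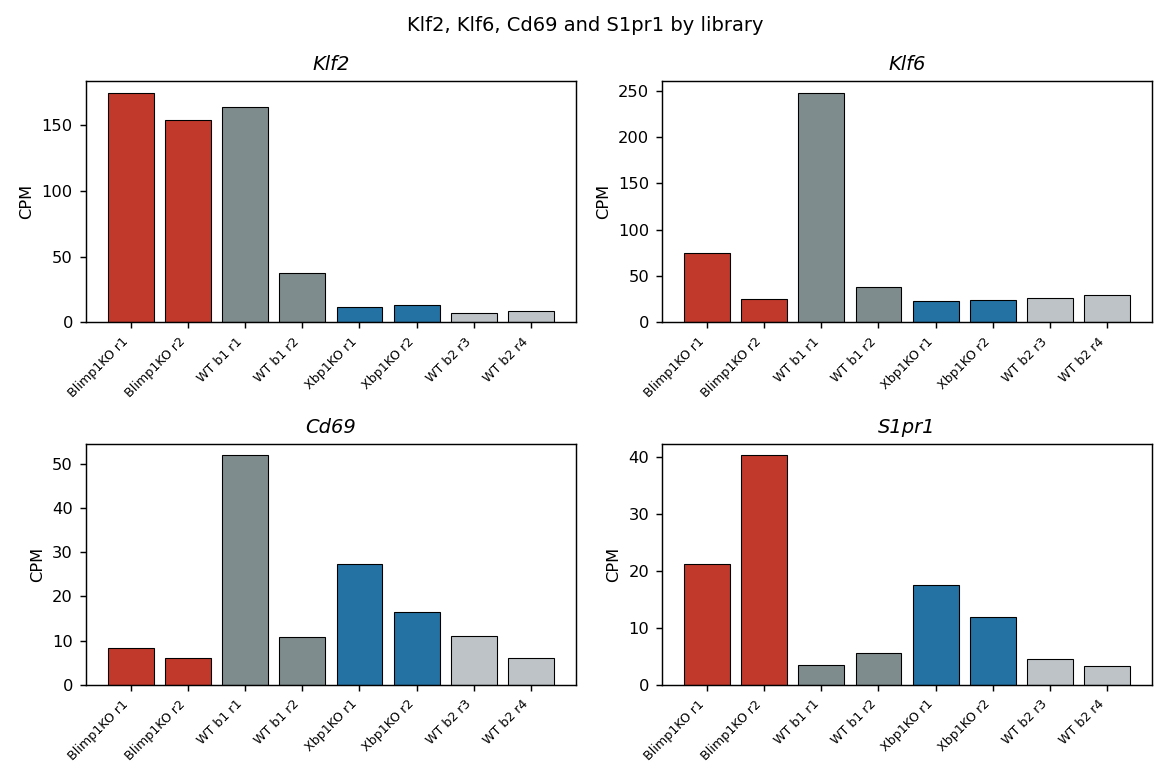
CPM of Klf2, Klf6, Cd69 and S1pr1 in each of the 8 libraries (bars from 0, coloured by group, r for replicate, b1 and b2 for the batches). WT replicate 1 of batch 1 is the highest library for Klf6 (248 CPM) and Cd69 (51.9 CPM) and is close to Blimp1KO for Klf2 (164 CPM), while S1pr1 is low in all 4 WT libraries.

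WT of batch 2 was set against WT of batch 1, which carry the same genotype label. Klf2 was the 1 gene of the 9 called, and it fell by 3.66 ± 0.63 on the log2 scale in WT of batch 2 (12.7-fold lower, interval -5.15 to -2.17, adjusted p = 0.0371), where 2.81% of all genes were called and 0.843% were called lower. Libraries did not overlap for 6 of the 9, against 67.7% of all genes. Klf2 lost the call without WT replicate 1 (-2.25, adjusted p = 0.0523), WT replicate 3 (-3.52, 0.171), WT replicate 4 (-3.82, 0.215), Xbp1KO replicate 1 (-3.63, 0.0606) or Xbp1KO replicate 2 (-3.63, 0.0555) and with limma-voom (-3.33, 0.0597), while its direction held in each fit.

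Several receptors were also lower in WT of batch 2 by estimate, without passing the threshold. The log2 difference was -1.59 ± 0.43 for Ccr10 (adjusted p = 0.0924), -1.42 ± 0.32 for Gpr183 (adjusted p = 0.0654) and -0.72 ± 0.22 for Ccr9 (adjusted p = 0.113). With all 4 WT libraries as the comparison group the Xbp1KO log2 fold change was 1.41 for Gpr183 (adjusted p = 0.121), 1.13 for Ccr9 (adjusted p = 0.0507) and -2.14 for Klf2 (adjusted p = 0.344), while S1pr1 kept its call. S1pr1, Cxcr4 and Cxcr3 had differences between the WT groups of -0.20, 0.01 and -0.08, and batch and group cannot be told apart in a comparison of Xbp1KO with Blimp1KO libraries.

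Whether the knockouts differed in effect was tested as the Blimp1KO effect minus the Xbp1KO effect. None of the 9 was called by edgeR, where 1.68% of all genes were. Ccr10, Cxcr5 and Ccr7 were called by edgeR without the low-count filter (adjusted p of 0.00641, 0.00195 and 0.00488), which called 3.22% of all genes, and by DESeq2 without the filter, which called 4.88%, so 3 of the 9 passed in each. DESeq2 on the filtered genes called the same 3, and the share of all genes called by that fit is not given here. In the edgeR test with the filter 4 of the 9 had an unadjusted p below 0.05, against 15.9% of all genes. These 4 were Cxcr5 (4.12 ± 1.10 on the log2 scale, adjusted p = 0.123), Ccr7 (3.48 ± 1.13, 0.183), Ccr10 (-2.08 ± 0.60, 0.144) and Ccr9 (-0.97 ± 0.31, 0.183). For S1pr1 the difference was 0.86 ± 0.54 (interval -0.42 to 2.14, adjusted p = 0.516), and for Gpr183 it was -0.87 ± 0.44 (interval -1.91 to 0.17, adjusted p = 0.407). The intervals of S1pr1 and Gpr183 span 0, which does not show that the knockouts act alike. Leaving out Xbp1KO replicate 2 brought Cxcr5 (5.81, adjusted p = 0.0309) and Ccr7 (5.35, 0.0396) past the threshold, leaving out Blimp1KO replicate 1 brought Cxcr3 (1.24, 0.0390), and leaving out Blimp1KO replicate 2 brought Ccr10 (-2.79, 0.0406).

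Other genes of the same routes were read from 6 lists. Over 15 tested genes around KLF2 (regulators, relatives and targets), the median log2 fold change was 0.08 in Blimp1KO and -0.03 in Xbp1KO. None of them was called in Xbp1KO, where the smallest p belonged to Itgb7 (-0.85 ± 0.32, adjusted p = 0.167), an integrin chain of gut homing.

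In the sphingosine 1-phosphate pathway, none of 16 genes was called in Blimp1KO and 3 were called in Xbp1KO, 1 higher and 2 lower, where 7.7% of all genes were called, 2.63% higher and 5.06% lower. Sgpp2, a phosphatase of sphingosine 1-phosphate, had 22.4 and 14.8 CPM in Xbp1KO, against 5.0 and 5.26 CPM in WT of batch 2, and rose by 1.86 ± 0.36 on the log2 scale (adjusted p = 0.0276). The related phosphatase gene Sgpp1 had 37.4 and 31.2 CPM in Xbp1KO, against 57.7 and 54.6 CPM in WT, and fell by 0.71 ± 0.16 (adjusted p = 0.0443). Spns2, an exporter of sphingosine 1-phosphate, had 1.73 and 2.15 CPM in Xbp1KO, against 6.06 and 6.67 CPM in WT, and fell by 1.72 ± 0.26 (adjusted p = 0.0119). The called genes thus lay on both sides of 0, and the list medians were -0.04 in Blimp1KO and 0.07 in Xbp1KO. The other receptor closest to the threshold in Blimp1KO was S1pr4, with 27.8 and 49.4 CPM in Blimp1KO, against 11.7 and 14.1 CPM in WT of batch 1 (1.58 ± 0.27, adjusted p = 0.0561). S1pr2, an inhibitory receptor of migration, followed with -0.62 ± 0.14 (adjusted p = 0.113).

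Of 23 genes that carry receptor signals to the cytoskeleton, 1 was called in each knockout, against 0.862% of all genes in Blimp1KO and 7.7% in Xbp1KO. Coro1a, an actin regulator needed for lymphocyte egress, had 317 and 483 CPM in Blimp1KO, against 111 and 125 CPM in WT of batch 1, and rose by 1.77 ± 0.25 on the log2 scale (adjusted p = 0.0353). Rgs14, a brake on Gi signalling, had 13.9 and 16.8 CPM in Xbp1KO, against 26.9 and 25.1 CPM in WT of batch 2, and fell by 0.76 ± 0.14 (adjusted p = 0.0248). List medians were 0.20 in Blimp1KO and 0.18 in Xbp1KO. The calls of Coro1a, Spns2, Sgpp1, Sgpp2 and Rgs14 were lost without WT replicate 3 or WT replicate 4, with adjusted p of 0.0642 to 0.216. That of Coro1a was also lost without WT replicate 1 (0.299) or 2 (0.257), those of Spns2, Sgpp1, Sgpp2 and Rgs14 without Xbp1KO replicate 1 (0.0637 to 0.115), and those of Sgpp1 and Rgs14 without Xbp1KO replicate 2, WT replicate 1 or WT replicate 2 (0.0712 to 0.240).

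No gene was called in the other 3 lists. Of 15 tested further chemokine receptors, the smallest p values were those of the decoy receptors Ackr3 (-1.40 ± 0.29, adjusted p = 0.0850) and Ackr2 (2.90 ± 0.65, adjusted p = 0.108) in Blimp1KO. In Xbp1KO they were those of Ccrl2 (-0.98 ± 0.33, adjusted p = 0.125) and Cxcr6, which had 0.347 and 1.38 CPM in Xbp1KO, against 0.102 and 0 CPM in WT of batch 2. The median of this list was 0.42 in Blimp1KO and 1.05 in Xbp1KO. The Xbp1KO median is the value of Ccr1, which had 0.0107 and 3.48 CPM in Xbp1KO, against 0.154 and 1.54 CPM in WT of batch 2. Ccr2 (0.0535 and 13.3 CPM in Xbp1KO, against 0.299 and 2.16 CPM in WT), Cx3cr1 and Cxcr2 were likewise higher in Xbp1KO replicate 2 and WT replicate 4, the libraries rich in neutrophil and monocyte markers. Ccr1, Ccr2, Cx3cr1 and Cxcr2 were named after their values were seen, and the part of those cells' RNA in the median was not tested. Both tested enzyme genes of the EBI2 ligand, Hsd3b7 and Cyp27a1, stayed at 1.36 to 3.51 CPM in all libraries. The 5 tested chemokine ligand genes had medians of -0.13 in Blimp1KO and 1.29 in Xbp1KO, with Ccl25 at 0.0865 to 0.712 CPM over the libraries.

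How the genes varied together was described over the 8 libraries as Pearson's r of log2 CPM minus the mean of WT of the own batch. Libraries of a batch share their WT mean and the knockout groups give most of the spread, so these values carry no p. The highest values were 0.959 for Cxcr5 with Ccr7 and 0.878 for Ccr9 with Gpr183, followed by 0.846 for Klf2 with Cxcr4 and 0.803 for S1pr1 with Gpr183. Klf2 with its T cell target S1pr1 gave 0.480. Cxcr3 ran opposite to Ccr9 at -0.826.

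Among 7012 genes averaging at least 3 on the log2 CPM scale, those most like S1pr1 were Khdrbs1 (r = 0.988), Rbbp7 (0.986), Nmi (0.984), Gmfb (0.981) and Ets1 (0.974). Ets1 had 105 and 118 CPM in Blimp1KO, against 47.8 and 55.3 CPM in WT of batch 1. In batch 2 it had 84.6 and 78.1 CPM in Xbp1KO, against 62.3 and 48.4 CPM in WT. Its range was thus narrower than that of S1pr1. The genes most like Klf2 were H2-Q1 (0.911), Szrd1 (0.908), Wdr91 (0.885), Clk1 (0.864) and Hspa8 (0.841). Hspa8 had 209 and 140 CPM in Blimp1KO, against 160 and 102 CPM in WT of batch 1, with replicate 1 above replicate 2 in both groups.

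Libraries held 44012152 to 145411827 counts, of which immunoglobulin genes took 25.2% to 75.8%. The 10 plasma cell markers were detected in every library, with summed CPM of 58500 and 72100 in Blimp1KO, against 119000 and 111000 in WT of batch 1, and 40800 and 32600 in Xbp1KO, against 67800 and 50000 in WT of batch 2. Most of each sum was Jchain, the joining chain gene (54800 and 67400 CPM in Blimp1KO, against 112000 and 104000 CPM in WT of batch 1). By gene, all 10 had estimates below 0 in Blimp1KO, with a median log2 fold change of -0.47, while 7 of the 10 were above 0 in Xbp1KO, with a median of 0.15, and none was called. The targeted gene Prdm1 had 243 and 176 CPM in Blimp1KO, against 301 and 306 CPM in WT of batch 1. Xbp1 had 1300 and 1110 CPM in Xbp1KO, against 2130 and 2200 CPM in WT of batch 2. Neither difference passed the test (adjusted p = 0.402 for Prdm1 and 0.0939 for Xbp1), and counts over a whole gene do not check a deletion whose extent is not given. Sdc1, which encodes CD138, had log2 fold changes of -0.52 ± 0.22 in Blimp1KO and 0.74 ± 0.22 in Xbp1KO (edgeR, adjusted p = 0.361 and 0.0980). The lower Xbp1 level was not particular to Xbp1KO. Xbp1 had 1370 and 1670 CPM in Blimp1KO, against 3000 and 3010 CPM in WT of batch 1. Its log2 fold change was -0.98 ± 0.25 in Blimp1KO (edgeR, adjusted p = 0.141) and -0.85 ± 0.25 in Xbp1KO.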

How the data were processed

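Per the labels' protocols, total RNA came from RNeasy Micro columns and was sequenced as TruSeq RNA libraries. Subread, featureCounts and limma, and the builds GRCm38 and mm10, are named without roles or versions, per the submitters' processing notes. The authors deposited a table of raw counts per Entrez gene for the 8 libraries and, per sample, log2 FPKM of 13945 genes. The deposited log2 FPKM values are scaled to nearly 1 common distribution (among the higher sorted values, with gene length added back, libraries differ by at most 0.00875). In batch 1 the FPKM file of each replicate 1 matched the count column of replicate 2 of its group and the reverse (r = 0.990 to 0.996, against 0.482 to 0.554 for the same number). Groups are unaffected, replicates are numbered here as in the counts, and FPKM served only as an alternative.

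Counts were analysed in R 4.3.3 with edgeR 4.0.16: filterByExpr (minimum count 10), TMM, a mean for each of 4 groups over 8 libraries (4 residual and 3.06 prior degrees of freedom), the quasi-likelihood test and Benjamini-Hochberg adjustment over 15073 genes at 0.05. The SE is the absolute log2 fold change over the square root of F. The fit was tested on simulated counts. Alternatives were DESeq2 1.42.0 (as planned without the filter, and added later on the filtered genes), limma-voom and limma 3.58.1 on log2 FPKM, RLE factors, removal of 261 immunoglobulin genes, no filter, 1 batch alone, pooled WT, a replicate block and each library left out; a fit that leaves 1 library in a group assumes that it varies like the others. The 9 genes and the lists were chosen with earlier results of these data known. Named list genes are up to 4 called with the smallest p, or otherwise 2 as values, of which 1 gene is not reported here; likeness leaves out immunoglobulin genes, pseudogenes and predicted genes. The smallest count quoted, 23 reads, comes from a library of 78256710.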

Additional observations from a re-analysis of the deposited data

Results flagged for a closer look

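The B cell complement receptor gene Cr2, a marker on the B cell list and none of the 9 genes, had estimates of opposite sign in the knockouts. It had 0.587 and 0.581 CPM in Blimp1KO, against 0.975 and 1.99 CPM in WT of batch 1 (log2 fold change -1.35 ± 0.42, adjusted p = 0.219, edgeR). In Xbp1KO it had 5.68 and 5.55 CPM, against 1.48 and 0.980 CPM in WT of batch 2 (2.19 ± 0.42, adjusted p = 0.0273). The edgeR test of the difference of these effects gave -3.53 ± 0.60 on the log2 scale (adjusted p = 0.0411), where 1.68% of all genes were called. Cr2 is described here because, among the 9 genes and the named list genes, only it passed this test. Whether the call of the difference holds in the alternative fits was not tested. The Xbp1KO call was lost without any 1 library of batch 2 (adjusted p = 0.0989 without Xbp1KO replicate 1, 0.0908 without replicate 2, 0.100 without WT replicate 3 and 0.156 without WT replicate 4). Cxcr5 and Ccr7 had the larger estimates in Blimp1KO (4.45 and 4.09), against 0.33 and 0.60 in Xbp1KO.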

How the results depend on the processing

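With 2 libraries a group, calls near the threshold changed with the processing while most directions held. Counts of the 9 genes called in Blimp1KO, 1 as reported, were 4 with DESeq2 (run without the low-count filter, so that tool and filter changed together over 23678 genes), 4 with edgeR without the filter, 0 with limma-voom, 3 with pooled WT, 2 with log2 FPKM and 2 without the libraries richest in neutrophil and erythroid RNA (Xbp1KO replicate 2 and WT replicate 4, an alternative chosen after seeing the data); leaving out 1 library gave 0 to 3. In Xbp1KO, 3 as reported became 5 with DESeq2, 5 without the filter, 5 with batch 2 alone, 1 with pooled WT and 0 without those 2 libraries, and 0 to 5 on leaving out 1. For the difference of effects, 0 became 3 with DESeq2, 3 without the filter and 0 to 2 on leaving out 1. Between the WT groups, 1 became 3 with DESeq2, 3 without the filter, 0 with limma-voom, 0 without those 2 libraries and 0 to 3 on leaving out 1. Calls in the 6 lists numbered 2 in Blimp1KO, becoming 9 with DESeq2, 8 without the filter, 0 with batch 1 alone, 6 with pooled WT, 1 without those 2 libraries and 0 to 6 on leaving out 1; the 4 in Xbp1KO became 9 with DESeq2, 7 without the filter, 0 without those 2 libraries and 0 to 6 on leaving out 1. Over all genes, 130 calls in Blimp1KO became 813 with DESeq2, 517 without the filter, 20 with batch 1 alone, 269 with pooled WT, 83 with limma-voom, 31 without those 2 libraries and 0 to 688 on leaving out 1, and 1160 in Xbp1KO became 2172 with DESeq2, 59 without those 2 libraries and 225 to 2123. DESeq2 on the filtered genes, chosen after seeing the data, gave the same counts as DESeq2 without the filter for the 9 genes and the 6 lists, and 856 and 2220 over all genes; filter removal alone thus gave the 9 genes the same counts as either DESeq2 fit. The cause was not tested, except that leaving out libraries reduces the samples. Over all genes in Xbp1KO, calls also numbered 1571 of 23678 without the filter, 1491 of 14882 with batch 2 alone and 1305 of 15073 with pooled WT. With log2 FPKM, 179 genes were called in Blimp1KO. Between the WT groups the main fit called 423 of all genes (2.81%). The share of all genes called in the other fits of that contrast is not given here, so its counts of the 9 have no background.

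With the replicate number of batch 1 as a block, 1 of the 9 genes was called in Blimp1KO as without it (S1pr1, 2.72, adjusted p = 0.0348). Over all genes, 89 were called in Blimp1KO, against 130 without the block. Of the 9 genes, 1 was called in the difference of effects (Ccr10, -2.14) and 2 between the WT groups (Klf2 and Ccr10). The share of all genes called with the block in these 2 contrasts is not given here. Without the block it was 1.68% for the difference of effects and 2.81% between the WT groups. Deviations of same-numbered libraries correlated at 0.218 over 15073 genes, which with 2 pairs and no label does not establish pairing.

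Several estimates changed sign on leaving out libraries, with limma-voom or log2 FPKM, or with pooled WT. Leaving out 1 library moved the Blimp1KO log2 fold change of Cxcr3 over -1.13 to 0.12 and that of Ccr10 over -1.11 to 0.14, and pooled WT gave Ccr10 0.20. In Xbp1KO, Klf2 was -2.14 with pooled WT, against 0.63 in the main fit. Cxcr5 was -0.27 with limma-voom, -0.13 with log2 FPKM, -0.77 without those 2 libraries and -1.31 to 1.03 on leaving out 1, and Ccr7 was -0.26 with limma-voom, -1.64 without those 2 libraries and -1.22 to 1.32. In the difference of effects, leaving out 1 library gave Klf2 -0.62 to 1.505, Cxcr4 -0.21 to 0.40 and Cxcr3 -0.022 to 1.24, and log2 FPKM gave Cxcr4 -0.060. Between the WT groups it gave S1pr1 -0.50 to 0.19, Cxcr4 -0.27 to 0.34 and Cxcr3 -0.19 to 0.035, and S1pr1 was 0.084 without those 2 libraries. Of 144 pairwise orders of levels, 142 held with log2 FPKM. Scaling by RLE, or without immunoglobulin genes, changed no call of the 9 genes in either knockout.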
